A study of Mus musculus with 8 samples.

Results

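The genes described here are 8 mouse non-coding genes of 2 kinds: the nuclear long non-coding RNAs Malat1 and Neat1, and 6 host genes of small nucleolar RNAs (snoRNAs), namely Gas5, Snhg1, Snhg3, Snhg5, Snhg8 and Snhg12. They were taken from a list of names, with Ensembl identifiers matched to mouse symbols; the rule uses no measured value, but the list was drawn up with earlier results of these data known. All 8 are among the 53465 genes counted in the NIH-3T3 libraries, and 3 of them, Malat1, Neat1 and Snhg12, are among the 31053 genes counted in the Scid.adh libraries. Gas5, Snhg1, Snhg3, Snhg5 and Snhg8 were not analysed here in Scid.adh.

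The study measured total RNA by sequencing in 2 mouse cell lines, with 2 libraries in each of 4 groups. NIH-3T3 is an embryonic fibroblast line. Its normal group is labelled wild type and untreated, and its other group is labelled Tcf7 induced, Tcf7 being the gene for the T cell transcription factor TCF-1. Per the file headers, all 4 of these libraries carry Cas9, an empty construct and a time of 72 hours, and the induced libraries alone carry doxycycline, so that TCF-1 and doxycycline cannot be told apart. Scid.adh is a T lymphoma line that resembles DN3 thymocytes. Its control group is labelled wild type with empty vector, and its other group is labelled Tcf7-/-, a knockout of TCF-1; the labels do not say whether the knockout cells are 1 clone. The labels do not tell whether libraries of 1 group stand for separate cultures; p-values reflect only how far these libraries differ, and that may be technical.

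Gene counts summed to between 13850213 and 17523677 per 3T3 library and between 7740198 and 10392402 per Scid.adh library. Tcf7 was at 14.5 and 14.6 CPM (counts scaled to a common library size) in normal 3T3 cells and at 946 and 972 after induction, and at 1318 and 1325 CPM with empty vector and 646 and 624 in the knockout, where its RNA was lower but still present; counts over a whole gene do not show whether its RNA still codes for the protein. All 7 fibroblast markers were above 1 CPM in every 3T3 library, with summed levels of 27039 and 26429 CPM in normal and 24375 and 24160 CPM in induced cells, against 18.4 CPM or less for 9 T lineage markers. In Scid.adh, 8 of 9 T lineage markers were above 1 CPM in every library, and their summed level was 3752 and 3707 CPM with empty vector and 2826 and 2853 in the knockout. Of 7 fibroblast markers in Scid.adh, 1 was above 1 CPM in every library, and their summed level was 122 and 126 CPM with empty vector and 12.04 and 10.9 in the knockout; the part of these shifts in any value below was not tested. The 2 knockout libraries differed from each other more than any other pair, with a chi-square of 6.89 per degree of freedom over genes against 1.17 to 1.97 for the other pairs.

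Malat1 is a long unspliced RNA that stays in the nucleus and collects in nuclear speckles, which store splicing factors. Neat1 is the RNA scaffold of paraspeckles, nuclear bodies built with the proteins Nono, Sfpq and Pspc1; a short and a long form share its start. Small nucleolar RNAs are cut from the introns of host genes, and many of them, though not all, guide chemical changes on ribosomal RNA. Among those that do, the C/D class guides ribose methylation and the H/ACA class guides pseudouridylation. The spliced host RNA that remains often codes for no protein, is exported and read by ribosomes, and is then degraded by nonsense-mediated decay; many hosts begin with a run of pyrimidines, as ribosomal protein genes do.

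Single snoRNAs are shown from Gas5, Snhg1, Snhg12 and Snhg8, because annotated exons of these hosts hold the stretches that code for them, so that reads there entered the host counts. The sequences are from GENCODE M21 (GRCm38), 5′ to 3′, with the C box (TGATGA) and D box (CTGA) in capitals for the C/D class and the ACA trinucleotide in capitals for the H/ACA class. In Snord22 the letters TGATGA were not found and the D box alone is in capitals.
Snord47 (C/D class, in Gas5, chr1:161038082-161038158, plus strand): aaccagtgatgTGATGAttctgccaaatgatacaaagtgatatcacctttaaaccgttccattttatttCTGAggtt
Snord22 (C/D class, in Snhg1, chr19:8725866-8725991, plus strand): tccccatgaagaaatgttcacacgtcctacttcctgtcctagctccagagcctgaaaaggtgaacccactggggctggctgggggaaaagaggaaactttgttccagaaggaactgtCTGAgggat
Snord99 (C/D class, in Snhg12, chr4:132310691-132310764, plus strand): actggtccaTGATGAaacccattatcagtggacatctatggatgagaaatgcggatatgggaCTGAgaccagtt
Snora24 (H/ACA class, in Snhg8, chr3:123507937-123508066, minus strand): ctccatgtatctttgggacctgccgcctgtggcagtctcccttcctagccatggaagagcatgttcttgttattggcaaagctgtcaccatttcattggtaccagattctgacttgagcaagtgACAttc

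The start regions are shown for 6 members, because a pyrimidine run at the start is known from many host genes. Each is 60 bases of the RefSeq promoter table (GRCm38.p6), 40 before the start and 20 from it on, in the direction of the gene, with runs of at least 5 pyrimidines within 25 bases of the start in capitals. The final capital of Snhg12 begins a run that goes on past the printed bases.
Snhg1 (chr19:8723447-8723506, plus strand): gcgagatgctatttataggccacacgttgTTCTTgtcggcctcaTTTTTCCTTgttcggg
Snhg12 (chr4:132308638-132308697, plus strand): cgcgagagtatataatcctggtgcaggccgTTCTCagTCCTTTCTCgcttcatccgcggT
Snhg8 (chr3:123508317-123508376, minus strand): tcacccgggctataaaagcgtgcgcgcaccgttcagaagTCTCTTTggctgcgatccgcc
Gas5, the second of 2 listed starts (chr1:161035126-161035185, plus strand): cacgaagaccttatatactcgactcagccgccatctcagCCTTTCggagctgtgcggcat
Snhg5 (chr9:88522878-88522937, minus strand): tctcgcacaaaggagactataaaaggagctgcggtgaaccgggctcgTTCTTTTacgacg
Malat1 (chr19:5802653-5802712, minus strand): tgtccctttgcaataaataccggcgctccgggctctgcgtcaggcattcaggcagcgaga

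The longest runs were 9 bases in Snhg1 and Snhg12, 7 in Snhg8 and Snhg5, 6 at the second start of Gas5 and 5 in Snhg3, and neither the first start of Gas5 nor Malat1 had a run. A run of this kind is common, being present in 70.3% of the 32851 promoters of the table. Both strands of each window, from 250 bases before to 50 after the start, were also searched for the TCF/LEF letters CTTTGAT and CTTTGTT, since TCF-1 belongs to that family. CTTTGAT was found in 3.73% of all promoters, CTTTGTT in 5.85% and either in 9.33%. Neat1 has no entry in the table, so neither pyrimidine runs nor TCF/LEF letters were searched for at its start. Among the members with an entry, Snhg8 held CTTTGAT and Snhg3 held CTTTGTT. Each match was on the strand opposite to the gene, so that the capitals below read as the reverse complement.
Snhg8, 118 bases before the start (chr3:123508436-123508465, minus strand): cctgtacaccaATCAAAGtgacgaggcgcg
Snhg3, 244 bases before the start (chr4:132353912-132353936, minus strand): tccacaAACAAAGtagattcaaact
A match describes the letters only; binding was not measured here. Of these genes, Snhg3 is among those that fell in 3T3 and Snhg8 is not, as given below.

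Malat1 and Neat1 were both lower in 3T3 cells after TCF-1 induction, and Neat1 had the largest change of the 8. Neat1, the paraspeckle scaffold, fell 2.53-fold, Malat1, the speckle RNA, 1.41-fold, and among the snoRNA hosts Snhg3 fell 1.41-fold, Snhg1 1.32-fold and Snhg12 1.20-fold. Gas5, Snhg5 and Snhg8 did not pass the test. In all, 5 of 8 members fell and 0 rose (edgeR's quasi-likelihood test, adjusted p under 0.05 over 18185 genes), where 36.8% of all tested genes were called, 18.5% being called up and 18.3% down. The median log2 fold change was -0.33 over the 8 members and 0.00037 over all tested genes. In RNA from whole cultures, fewer cells with a transcript and less of it per cell cannot be told apart.

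Neat1 (chr19:5824708-5845478, minus strand, 20771 exon bases) was at 877 and 867 CPM in the normal libraries, and its induced libraries were at 338 and 351 CPM. Both induced libraries lay far below both normal libraries, and the 2 libraries of each group were close to each other. The log2 fold change was -1.34 (SE 0.03, n = 2 libraries per group, edgeR adjusted p = 6.27e-33), and only 1.24% of tested genes had a lower one. Neat1 was also the only member that passed a stricter test against a change of 1.5-fold, which 5.04% of all tested genes passed. Its call held in every alternative fit in 3T3, with log2 fold changes from -1.37 to -1.27.

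Malat1 (chr19:5795690-5802672, minus strand, 6983 exon bases) lies 22036 bases from Neat1 on the same strand and was the most abundant member. It was at 8627 and 8492 CPM in the normal libraries against 5802 and 6343 CPM after induction, again with no overlap. The log2 fold change was -0.50 (SE 0.03, edgeR adjusted p = 2.15e-18). Malat1 counts made up 0.853% and 0.844% of all gene counts in normal cells and 0.584% and 0.635% after induction. Taking the 8 members out of the library totals changed no member's call in 3T3. In a fit of all 8 libraries together, the Malat1 call was lost (log2 fold change -0.52, adjusted p = 0.186).

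The ratio of Malat1 counts to Neat1 counts was 9.84 and 9.80 in normal cells and 17.2 and 18.1 after induction, since Neat1 fell further than Malat1. Frmd8os, an antisense gene that starts 145 bases from the start of Neat1, had a log2 fold change of -0.15 (adjusted p = 0.626) at 3.24 to 3.68 CPM and was not called.

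**Figure D1:**
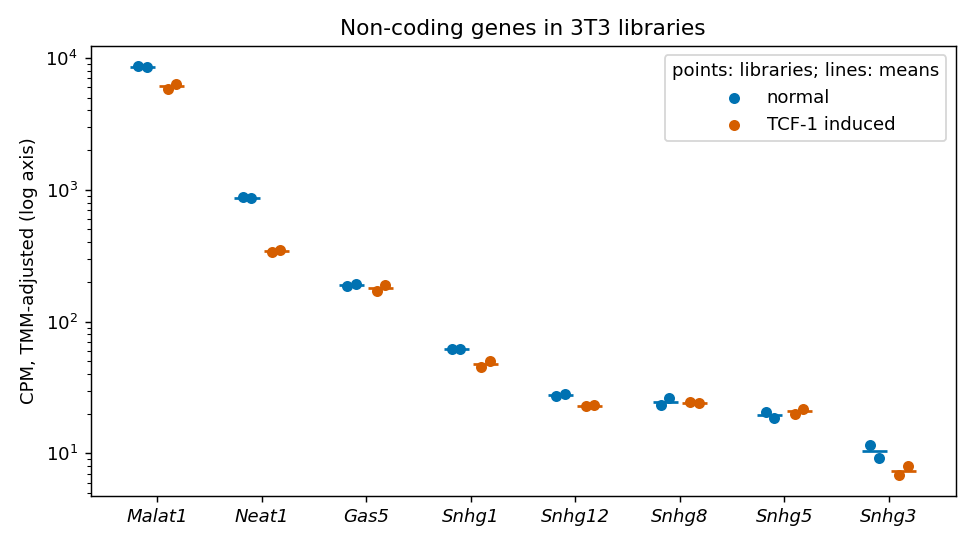
CPM of the 8 genes in each 3T3 library on a log axis, with normal libraries in blue, TCF-1 induced libraries in orange and group means as short lines. The induced points lie below the normal points without overlap for Malat1, Neat1, Snhg1, Snhg12 and Snhg3, with the widest gap for Neat1 (877 and 867 against 338 and 351 CPM).

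Several short annotated RNAs lie inside the 2 nuclear RNAs and give a view of single stretches of them. Inside Neat1, 3 entries of class misc_RNA lie 441, 731 and 1041 bases from its start, in the stretch common to the short and long forms. Their log2 fold changes were -1.02 (SE 0.11) for Gm28006, -0.66 (SE 0.22) for Gm27505 and -0.81 (SE 0.14) for Gm27533, all called lower. The induced libraries differed here. The 3 entries made up 6.18% of Neat1 counts in induced library 1 and 4.33% in induced library 2, against 3.99% and 3.86% in the normal libraries. Neat1 counts without these entries changed by -1.36, and whether the stretch near the start changed less than the rest was not tested. Inside Malat1, Gm27694, which lies 3587 bases from the start, changed by -0.55, close to the value of Malat1 itself. Gm37376, annotated antisense within Malat1, received counts equal to 9.85% to 10.7% of those of Malat1 and changed by -0.42; how strand was treated in counting is not given in the sources used here, so its reads and those of Malat1 cannot be told apart.

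Among the snoRNA hosts, Snhg1 (chr19:8723475-8726443, plus strand), which carries 8 annotated snoRNAs of which Snord22 had the most reads, was at 62.2 and 62.0 CPM in normal cells and at 44.9 and 49.8 CPM after induction. The log2 fold change was -0.40 (SE 0.06, edgeR adjusted p = 6.02e-07). The 2 groups did not overlap, and the induced libraries were further apart than the normal ones. Slc3a2, an amino acid transporter subunit gene that starts 106 bases from Snhg1 on the other strand, fell by 0.16 on the log2 scale (adjusted p = 0.00159), while Wdr74 on the other side rose by 0.20 (adjusted p = 0.0469).

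Snhg12 (chr4:132308623-132311024, plus strand), which carries Snora16a (as 2 overlapping entries), Snora44, Snora61 and Snord99, was at 27.1 and 28.0 CPM in normal cells and at 22.9 and 23.1 CPM after induction. The change was small against the other called members but larger than the spread within either group, with a log2 fold change of -0.26 (SE 0.08, edgeR adjusted p = 0.00819). With DESeq2 the adjusted p of Snhg12 was 0.125, and without normal library 2 it was 0.114, so this call depends on the tool and on 1 library. Where 1 library is left out, the lone library of its group is assumed to vary as those of the other group do. The neighbours of Snhg12 were not called lower: Taf12, which codes for a subunit of the general transcription machinery, rose by 0.37 (adjusted p = 0.00183), and Trnau1ap, 739 bases away, had 0.23 (adjusted p = 0.0891).

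Snhg3 (chr4:132348014-132353686, minus strand), host of the H/ACA class RNAs Snora73a and Snora73b, was the least abundant member. It was at 11.6 and 9.25 CPM in normal cells and at 6.83 and 8.001 CPM after induction. The groups did not overlap, but the normal libraries differed from each other by more than the gap between the groups. The log2 fold change was -0.50 (SE 0.13, edgeR adjusted p = 0.00261). The Snhg3 call was lost with DESeq2 (adjusted p = 0.0860), without induced library 1 (adjusted p = 0.0544) and without normal library 1 (adjusted p = 0.141). Gm17300 overlaps 705 of the 986 exon bases of Snhg3 on the other strand and had -0.21 (edgeR adjusted p = 0.0895). Rcc1 shares 135 exon bases with Snhg3 on the same strand and had -0.04 (edgeR adjusted p = 0.805). Counts of Gm17300 equalled 227% to 292% of those of Snhg3. Reads of the shared stretches cannot be assigned to a single gene, and how much of the fall is Snhg3's own was not tested. On the side of the Snhg3 start, Phactr4 fell by 0.26 (adjusted p = 1.58e-04).

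Gas5 (chr1:161034422-161038539, plus strand), whose name stands for growth arrest-specific, carries the largest number of annotated snoRNAs of the members, with 10 entries, or 9 when overlapping entries are counted once. It was at 187 and 192 CPM in normal cells and at 171 and 190 CPM after induction. The ranges overlapped, and the log2 fold change was -0.07 (SE 0.04, adjusted p = 0.191). Without induced library 2 the change was -0.15 and passed the test (adjusted p = 1.61e-04), and without induced library 1 it was 0.0096, so the 2 induced libraries gave different answers for Gas5. Zbtb37, whose locus overlaps Gas5 on the other strand, fell by 0.17 (adjusted p = 0.0237).

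Snhg5 (chr9:88521050-88522929, minus strand), host of Snord50a and Snord50b, was at 20.5 and 18.7 CPM in normal cells and at 19.97 and 21.8 CPM after induction. Snhg8 (chr3:123507552-123508404, minus strand), host of Snora24, was at 23.1 and 26.4 CPM in normal cells and at 24.4 and 24.003 CPM after induction. In both genes the groups overlapped. The log2 fold changes were 0.09 for Snhg5 (SE 0.09, adjusted p = 0.483) and -0.03 for Snhg8 (SE 0.08, adjusted p = 0.804). Of their neighbours, Zfp949 near Snhg5 fell by 0.36 (adjusted p = 0.00108) and Ndst3 near Snhg8 fell by 0.83 (adjusted p = 0.0123) at 1.37 to 2.63 CPM.

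Counted by overlap alone, both induced libraries were below both normal ones for 5 of 8 members, where 32.7% of all tested genes showed that order, and above both for 0 members, where 32.4% of all tested genes did. Levels of different genes were compared per kilobase of annotated exon. In normal 3T3 cells the order was Malat1 (1226 CPM per kb), Gas5 (50.4), Neat1 (42.0), Snhg8 (29.0), Snhg1 (20.9), Snhg12 (11.5), Snhg5 (11.3) and Snhg3 (10.6), and the last 3 did not differ beyond their spread. After induction Neat1, at 16.6 CPM per kb, came after Snhg8 at 28.4 and beside Snhg1 at 15.9, and Snhg5 at 12.1 came before Snhg12 at 9.57 and Snhg3 at 7.52. The exon length of a gene with many annotated forms, such as Gas5, is that of all its forms together. Its level per kb is thus a lower estimate than one over a single transcript. Over the longest transcript, the lowest 3 in normal cells were Snhg3 (17.97 CPM per kb), Snhg12 (17.92) and Snhg5 (16.0). After induction Snhg1 (17.4) and Snhg5 (17.1) then came before Neat1 (16.6). Host counts include snoRNA entries, which made up 40.4% of Snhg12 counts in normal library 1 and 1.53% of Snhg5 counts.

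**Figure D2:**
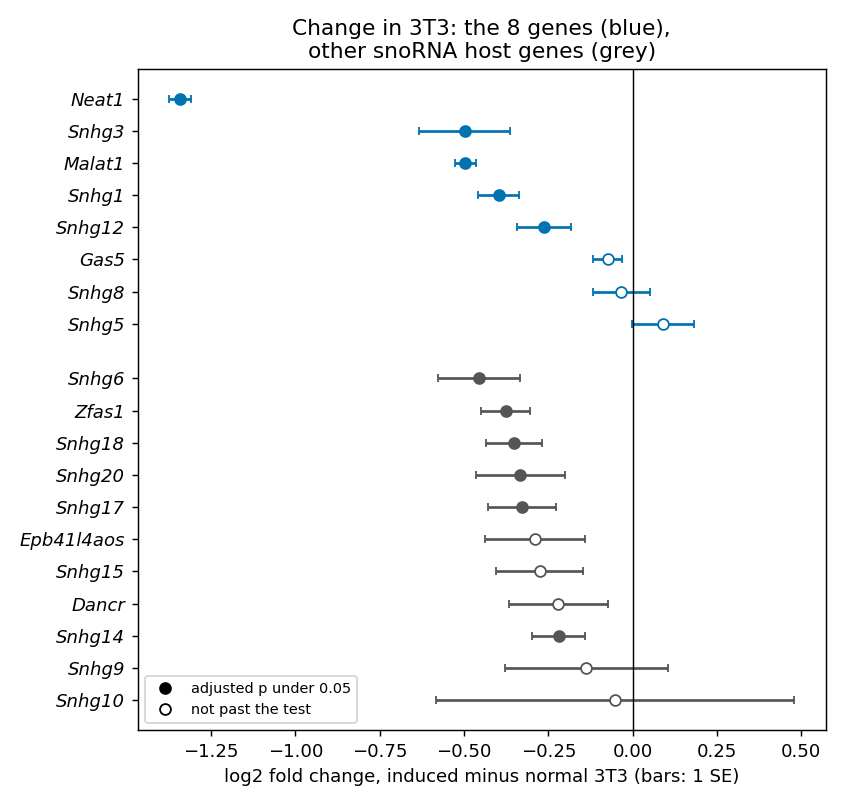
Log2 fold change, induced minus normal 3T3, of the 8 genes (blue) and of 11 other non-coding snoRNA hosts (grey), with bars of 1 SE; filled points passed the test. Neat1 lies at -1.34, apart from the other genes shown, and all grey points lie below 0, 6 of them past the test.

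The snoRNAs inside the hosts had few reads and none passed the test. The annotation holds 28 snoRNA entries within the 6 hosts, 26 of them inside an annotated host exon, with 0 to 248 counts per library. Of the 24 with enough counts to test, 0 rose and 0 fell, with a median log2 fold change of -0.03. Their standard errors ran from 0.10 for Gm22357 in Gas5 to 0.48 for Gm24452 in Snhg1, so that small changes were not detectable at this depth. A read inside both a snoRNA and its host was counted for both: 2 overlapping entries named Snora16a have identical counts, 37, 35, 46 and 36. Reads on such a stretch can come from the free snoRNA or from host RNA that still holds it, and the 2 sources cannot be told apart.

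In normal library 1, snoRNA entries made up 40.4% of the counts of Snhg12, 32.5% of Snhg1, 17.0% of Gas5 and 15.7% of Snhg8. When these entries were subtracted, an alternative chosen after seeing the data, the remaining host counts of Snhg1 were at 42.0 and 44.5 CPM in normal cells and at 27.3 and 30.4 after induction. The change of the Snhg1 remainder was -0.59 (adjusted p = 3.25e-09), where its summed snoRNA entries, at 20.2 and 17.5 CPM against 17.6 and 19.4, had a log2 ratio of -0.03. The remainder of Snhg1 thus passed the test without its snoRNA entries; the difference between the 2 parts was not tested.

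The remainder of Snhg12 changed by -0.34 (adjusted p = 0.00697) and its snoRNA entries by -0.15. In Snhg3 the entries for Snora73a and Snora73b lie outside the annotated exons, so nothing was subtracted, and their summed log2 ratio was -0.07 beside -0.50 for the host. For Gas5 the remainder changed by -0.07 and the snoRNA entries by -0.08, and for Snhg8 the values were -0.06 and 0.12. The snoRNA estimates are wide: within Snhg12, Snord99 had -0.49 (SE 0.24) and Snora61 -0.34 (SE 0.20), values as low as that of the remainder, without passing the test. Whether hosts and snoRNA entries changed differently was not tested.

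**Figure D3:**
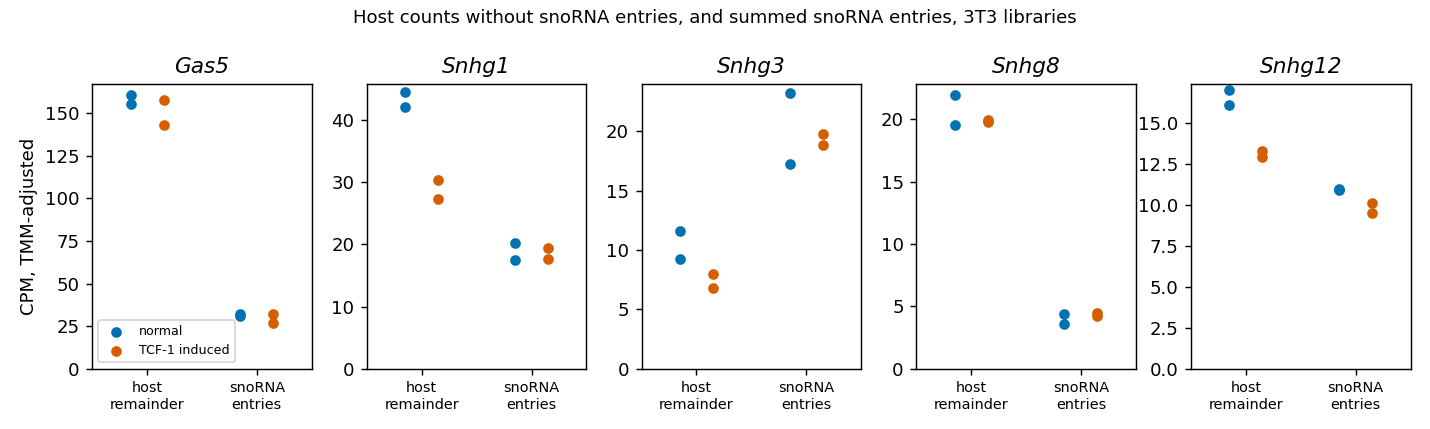
CPM in each 3T3 library of 5 hosts, split into the host counts left after subtracting snoRNA entries inside its exons and the summed snoRNA entries; normal in blue, induced in orange, axes from 0. In Snhg1 the induced points lie below the normal ones for the remainder (27.3 and 30.4 against 42.0 and 44.5 CPM) and among them for the snoRNA entries; in Snhg3 the entries lie outside the exons and nothing was subtracted.

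Of 11 other non-coding snoRNA hosts tested in 3T3, 6 fell and 0 rose, with a median log2 fold change of -0.29, and all 11 estimates were below 0; leaving out 1 library gave 3 to 6 that fell. To be set beside this list and the 3T3 lists that follow, 18.3% of all tested genes fell and 18.5% rose, with a median of 0.00037. A count near these shares is not a result about its list. The shares are over tested genes of all levels and were not matched to the levels of the lists, and no list was tested as a set. Snhg6 fell from 11.5 ± 0.96 to 8.42 ± 0.33 CPM (SD, n = 2, log2 fold change -0.46, edgeR adjusted p = 0.00236). Zfas1, host of several C/D class snoRNAs, fell from 38.9 ± 0.23 to 29.9 ± 1.61 CPM (-0.38, adjusted p = 2.84e-05). Protein-coding snoRNA hosts had 11 of 31 fall (6 to 16 when 1 library was left out) and 1 rise, with a median of -0.08; Hspa9, a mitochondrial chaperone gene, fell by 0.58 (adjusted p = 1.03e-19). Of the snoRNP proteins that package snoRNAs, 2 of 17 rose and 2 fell, with a median of 0.03, and Nolc1, a nucleolar chaperone of snoRNPs, rose by 0.21 (adjusted p = 2.81e-04).

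Of 14 tested other nuclear or regulatory long non-coding RNAs, 4 fell and 1 rose, with a median of -0.12. Lncpint fell by 0.85 (adjusted p = 5.17e-08) and Ftx, a regulator at the X-inactivation centre, by 0.72 (adjusted p = 5.91e-07), while Tug1 rose by 0.11 (adjusted p = 0.0297). Among paraspeckle proteins, the partners of Neat1, 2 of 16 rose and 4 fell (1 to 4 and 1 to 5 when 1 library was left out), with a median of -0.03. Pspc1, a core paraspeckle protein, rose by 0.42 (adjusted p = 1.01e-04), while Sfpq, another one, fell by 0.12 (adjusted p = 0.00219) and Matr3, a nuclear matrix protein, by 0.20 (adjusted p = 2.20e-05). Sfpq, which was chosen after its values were seen, lost its call without normal library 1 (adjusted p = 0.115) or normal library 2 (adjusted p = 0.0692).

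Nuclear speckle and SR proteins, the partners of Malat1, had 10 of 18 fall and 3 rise (5 to 10 and 2 to 5 when 1 library was left out), with a median of -0.10. Clk1 and Clk4, kinases that phosphorylate SR proteins, fell by 0.45 (adjusted p = 2.74e-10) and 0.48 (adjusted p = 1.94e-08), and the splicing factor Srsf2 rose by 0.39 (adjusted p = 9.55e-10). Of the proteins that act on the end of Malat1, with RNase P and RNase Z among them, 3 of 12 rose and 0 fell. Their median was 0.13, and the count that rose moved when 1 library was left out. The RNase P subunit Pop1 rose by 0.67 (adjusted p = 1.86e-07) and Elac2, which is RNase Z, by 0.37 (adjusted p = 1.34e-04). Of the nonsense-mediated decay factors that act on spliced host RNAs, 2 of 16 rose and 3 fell (0 to 2 and 2 to 4 when 1 library was left out), with a median of 0.01, and the kinase Smg1 fell by 0.40 (adjusted p = 1.31e-12).

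In Scid.adh, 0 of the 3 members with a row passed the test between knockout and empty vector, where 31.5% of 11941 tested genes did, 15.6% up and 15.9% down. Neat1, at 31.7 and 40.4 CPM with empty vector and 23.1 and 34.9 CPM in the knockout, had a log2 fold change of -0.31 (SE 0.18, adjusted p = 0.208). Malat1 was at 1943 and 1986 CPM with empty vector against 1449 and 2300 CPM in the knockout, with a log2 fold change of -0.07 (SE 0.30, adjusted p = 0.896). Snhg12 was at 63.6 and 75.2 CPM with empty vector against 69.8 and 65.7 CPM in the knockout, with a log2 fold change of -0.03 (SE 0.10, adjusted p = 0.830). In all 3 genes the groups overlapped, where 33.9% of all tested genes had both knockout libraries below and 32.8% both above the empty vector ones. With 2 libraries per group this does not show that the levels were alike. Against a change of 1.5-fold 6.06% of all tested genes passed and 0 members did. At unadjusted p under 0.05 the count of members was also 0, and DESeq2 called 0.

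The 2 knockout libraries stood on opposite sides of the empty vector libraries for Malat1. Knockout library 1 was below both and knockout library 2 above both. Without knockout library 1, Malat1 changed by 0.22 (adjusted p = 3.96e-17), and without knockout library 2 by -0.44 (adjusted p = 1.05e-60), so each single library gave a call in its own direction. Neat1 without knockout library 2 changed by -0.64 (adjusted p = 2.42e-04) and without empty vector library 1 by -0.49 (adjusted p = 0.0224), but without knockout library 1 by -0.054 (adjusted p = 0.798) and without empty vector library 2 by -0.14 (adjusted p = 0.596).

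Other measures of both knockout libraries also stood apart. The summary row of each file gives reads assigned to no feature, which can include intronic reads. These were 25.8% of the reads in knockout library 2, 22.3% in knockout library 1 and 21.3% and 21.6% with empty vector. Mitochondrial genes took 0.976% of gene counts in knockout library 2 and 0.524% in knockout library 1. The empty vector values, 0.716% and 0.719%, lay between these. Ambiguous reads were 2.44% in knockout library 1 and 2.20% in knockout library 2, against 2.28% and 2.31% with empty vector. Malat1 and Neat1, both retained in the nucleus, were higher in knockout library 2 than in knockout library 1, and Snhg12 was not. What part these differences had in the Malat1 and Neat1 values was not tested.

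**Figure D4:**
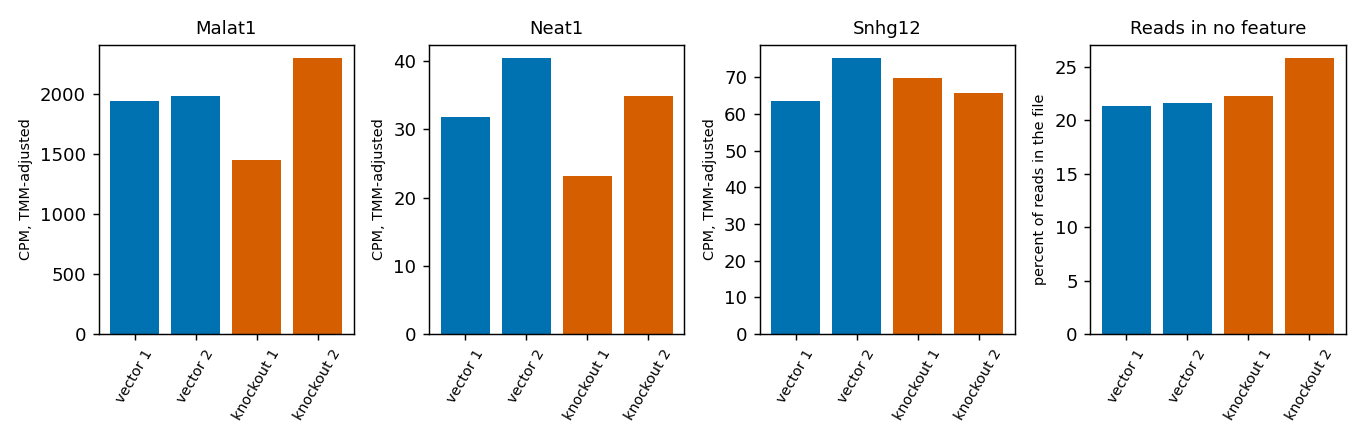
Bars from 0 for the 4 Scid.adh libraries, empty vector in blue and knockout in orange: CPM of Malat1, Neat1 and Snhg12, and the percentage of reads in the file assigned to no feature. Knockout library 2 is the highest for Malat1 (2300 CPM) and for reads in no feature (25.8%), and knockout library 1 is the lowest for Malat1 (1449 CPM) and Neat1 (23.1 CPM).

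In Scid.adh the companion lists gave the following counts, beside a median log2 fold change of -0.0039 over all tested genes. Of all tested genes in this line, 15.9% fell and 15.6% rose, and a count near these shares is not a result about its list. Here too the shares were not matched to the levels of the lists. Of 5 tested other snoRNA hosts, 0 rose and 0 fell, with a median of 0.15, and of 9 tested other long non-coding RNAs (median -0.22), Tug1 rose by 0.44 (adjusted p = 0.00103) and Pvt1 fell by 0.43 (adjusted p = 0.0383). Of 17 snoRNP proteins, 9 fell and 0 rose, with a median of -0.25, and Nolc1 fell from 766 ± 13.8 to 481 ± 10.3 CPM (log2 fold change -0.67, adjusted p = 4.78e-06). Protein-coding snoRNA hosts had 10 of 31 fall and 0 rise (median -0.09), and decay factors 6 of 16 fall and 0 rise (median -0.15), with Smg1 falling by 0.44 (adjusted p = 6.95e-04). Paraspeckle proteins had 5 of 16 fall and 1 rise (median -0.08), and speckle proteins 4 of 18 fall and 1 rise (median -0.09), which was Clk1, by 0.51 (adjusted p = 0.00116). Of the proteins that act on the end of Malat1, 2 of 11 fell and 0 rose (median -0.12), with Elac2 falling by 0.33 (adjusted p = 0.00469). Leaving out 1 library moved these Scid.adh counts: those that fell were 3 to 19 protein-coding hosts, 2 to 7 decay factors, 1 to 7 paraspeckle proteins, 3 to 8 speckle proteins, 6 to 10 snoRNP proteins and 1 to 3 proteins that act on the end of Malat1. Those that rose were 0 to 4 protein-coding hosts, 1 to 4 speckle proteins, 0 to 2 paraspeckle proteins and 0 to 1 decay factor. With library totals as the only scaling, 2957 genes were called up and 917 down in Scid.adh, against 1861 and 1899 with TMM scaling, and the median of all genes moved to 0.13. With upper-quartile factors the counts were 2455 and 1215. Directions in this line are thus relative to the scaling chosen.

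Genes next to the members gave values of their own in Scid.adh. Slc3a2, beside Snhg1, fell by 0.22 (adjusted p = 0.0269). Trnau1ap, beside Snhg12, fell by 0.54 (adjusted p = 0.0278), while Snhg12 itself did not pass the test. Gm17300, which shares exon bases with Snhg3 and has a row in these files although Snhg3 has none, was at 116 and 129 CPM with empty vector against 139 and 125 CPM in the knockout (0.11, adjusted p = 0.330). Rcc1, which also overlaps Snhg3, fell by 0.53 (adjusted p = 1.08e-04).

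The change in 3T3 and the change in Scid.adh were compared by an interaction term in a joint fit of 15854 genes, in which 30.7% of genes were called, 2316 with a higher and 2551 with a lower change in 3T3 (1553 and 3384 with library totals as the only scaling). The 2 contrasts share no library. One is TCF-1 induction and the other is TCF-1 knockout, so a change that followed TCF-1 in both lines would have opposite signs. Such a change would also count as a difference here. Of the 3 members, 1 differed: the change of Neat1 was lower in 3T3 by 1.03 on the log2 scale (SE 0.21, adjusted p = 0.00767). The Neat1 difference did not pass a test against 1.5-fold (adjusted p = 0.103). For Malat1 the difference was -0.42 (SE 0.32, adjusted p = 0.412) and for Snhg12 it was -0.23 (SE 0.13, adjusted p = 0.180). Leaving out 1 library moved the Neat1 difference between -1.26 (without knockout library 1) and -0.68 (without knockout library 2), and it was called each time. The Malat1 difference was -0.035 without knockout library 2 (adjusted p = 0.639) and -0.68 without knockout library 1 (adjusted p = 6.88e-20).

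Levels in the 2 lines are set side by side only, since the files were counted on different gene tables. In the joint scaling Neat1 was at 932 and 922 CPM in normal 3T3 cells and at 31.1 and 39.4 CPM in Scid.adh with empty vector, a ratio of means of 26.3. Malat1 was 4.74 times higher in 3T3, at 9168 and 9028 against 1903 and 1937 CPM. Snhg12 had the opposite order, at 28.8 and 29.8 CPM in 3T3 against 62.3 and 73.3 CPM in Scid.adh, a ratio of 2.31. The 3T3 files count a read in 2 genes for both, and snoRNA entries make up 39.1% to 43.9% of Snhg12 counts there, while the Scid.adh files set 2.20% to 2.44% of their reads aside as ambiguous; how far this moves the Snhg12 ratio was not tested. Per kilobase within Scid.adh, the order with empty vector was Malat1 (281 CPM per kb), Snhg12 (28.9) and Neat1 (1.74), and the same order held in the knockout at 268, 28.2 and 1.40. The ratio of Malat1 to Neat1 counts was 61.2 and 49.2 with empty vector and 62.7 and 65.9 in the knockout.

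The genes whose pattern was most like that of a member were found over the 8 libraries, on log2 CPM centred within each line, among 6774 genes whose mean reached 10 CPM in each line. For Malat1 they were Mipol1 (Pearson r 0.994), Rif1 (0.991) and Shprh (0.989). For Neat1 they were Zeb1 (0.991), Metap1d (0.990) and Rere (0.989). For Snhg12 they were Usp14 (0.971), Rnft1 (0.960) and Tmem41b (0.959). All points share the 8 libraries and their depth, so these values describe likeness over a small number of libraries.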

How the data were processed

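The authors deposited raw gene counts, 1 file per library. Per the labels' protocols, libraries came from a stranded kit for total RNA and were read in pairs. Per the submitters' processing notes, STAR 2.5.0a, HTSeq 0.6.1 and GRCm38 (mm10) were used; the annotation release and strand setting of the counting are unknown here. The 3T3 and Scid.adh files list different genes, 30731 in both. The 3T3 files hold no rows that summarise unassigned reads and give 0 counts over 37 mitochondrial genes. Such rows are in the Scid.adh files and were left out of the fits, and mitochondrial genes have counts there. Whether the processing notes hold alike for the files of both lines is unknown here.

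Symbols, positions and exon lengths came from GENCODE M21 (all 8 members matched); promoters came from RefSeq, where 7 of the 8 have an entry. Each line was fitted alone with edgeR 4.0.16 in R 4.3.3 (filterByExpr, TMM, robust quasi-likelihood F-test, Benjamini-Hochberg adjustment over all genes tested, call at 0.05). CPM are TMM-adjusted, errors are SE of log2 fold changes or SD over 2 libraries. DESeq2 1.42.0, limma 3.58.1, other scalings and filters, a replicate block and leaving out each library were alternatives. Replicate numbers did not pair libraries (correlations of deviations 0.012 and 0.0015). The fits were run on simulated counts with planted changes, drawn with the same spread for all genes of a comparison. In the real libraries the spread differs between genes and groups. The simulation therefore does not show how reliable calls of changes as small as those of most members are.

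The members and lists were chosen with earlier results of these data known. Named genes are the members, their neighbours (some are not reported here), per list up to 2 called genes with the largest rise and fall at a mean of at least 5 CPM, of which some are given, and the 3 most alike genes per member. Sfpq was named outside this rule, after its values were seen.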

Additional observations from a re-analysis of the deposited data

Results flagged for a closer look

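For the following genes the change in 3T3 (induced minus normal) and the change in Scid.adh (knockout minus empty vector) differed by an interaction term in edgeR's joint fit of 8 libraries, with Benjamini-Hochberg adjustment over 15854 genes, of which 30.7% were called. Values are the first change minus the second on the log2 scale. The first is TCF-1 induction and the second is TCF-1 knockout, so changes of opposite sign make the value larger in size. A called value therefore does not tell a response to TCF-1 shared by both lines from one of a single line. Of the members with a row in all files, Neat1 had -1.03 (adjusted p = 0.00767).

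Among other non-coding RNAs, Snhg6 had -0.60 (adjusted p = 0.0155), Ftx -0.52 (adjusted p = 0.0379) and Tug1 -0.33 (adjusted p = 0.00388). Among speckle genes, Clk1 had -0.96 (adjusted p = 2.46e-09), Clk4 -0.74 (adjusted p = 4.14e-05) and Srsf2 0.48 (adjusted p = 1.19e-05). The paraspeckle gene Matr3 had -0.30 (adjusted p = 0.00173). Nolc1 had 0.88 (adjusted p = 3.54e-11), Pop1 0.80 (adjusted p = 3.76e-05), Elac2 0.70 (adjusted p = 7.78e-06) and Hspa9 -0.33 (adjusted p = 2.85e-04).

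Among genes beside the members, Trnau1ap had 0.77 (adjusted p = 0.00254), Taf12 0.59 (adjusted p = 6.62e-04) and Rcc1 0.49 (adjusted p = 6.52e-04).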

How the results depend on the processing

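In 3T3, 118 of 131 alternative values of members kept direction and side of the threshold, in Scid.adh 35 of 48, and for the difference between lines 54 of 57. The count of 5 members called in 3T3 became 3 with DESeq2, 2 (of the 3 with a row) in the joint fit and 1 against 1.5-fold. Genes called in 3T3 were 4012 with DESeq2 and 917 against 1.5-fold, in Scid.adh 1960 and 724, and 1250 between lines against 1.5-fold, where the main counts were 6693, 3760 and 4867. Leaving out 1 library gave 2221 to 4210 genes and 0 to 2 members in Scid.adh (main 0), and 1 to 2 members between lines (main 1), which were 2 with library totals and 0 against 1.5-fold. With a replicate block 1 member was called in Scid.adh, Neat1 (-0.32, adjusted p = 0.0419).

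Signs turned in Scid.adh for Malat1 with library totals (0.060), upper-quartile factors (0.010) and cyclic loess (0.12), for Snhg12 with the same 3 (0.10, 0.047 and 0.033), for Srsf2 (0.048), Pop1 (0.0082) and Phactr4 (0.011) with library totals, for Srsf2 (0.053), Sfpq (0.034) and Wdr74 (-0.032) with cyclic loess, and for Zbtb37 without a filter (-0.014). Leaving out 1 library also turned signs, with ranges in Scid.adh of -0.44 to 0.22 for Malat1, -0.16 to 0.080 for Snhg12, -0.73 to 0.14 for Lncpint and -0.014 to 0.27 for Wdr74, and in 3T3 of -0.15 to 0.0096 for Gas5, -0.12 to 0.067 for Snhg8, -0.077 to 0.015 for Rcc1 and -0.40 to 0.0016 for Gm17300. The cause was not tested.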
